A study of Mus musculus with 9 samples.

Results

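Replication-dependent and linker histone genes encode the H1 linker histones and the canonical core histones H2A, H2B, H3 and H4, which are made mainly while a cell copies its DNA. They were taken as the rows whose gene symbol starts with H1f, H2ac, H2bc, H3c or H4c followed by a number alone. This gave 72 of the 40213 symbols in the count files, made up of 11 H1, 18 H2A, 18 H2B, 12 H3 and 13 H4 genes. Mouse embryonic stem (ES) cells, from which total RNA was extracted, were sequenced in 9 libraries, 3 in each of 3 groups. The EWS-OCT4 libraries came from a stable line of the kind the labels call Niwa, carrying EWS-OCT4, in which the RNA-binding protein EWS is fused to OCT4, the transcription factor that sustains pluripotency and is encoded by Pou5f1. The OCT4 libraries came from such a line carrying OCT4, and the J1 libraries from J1, a standard ES cell line used as the control. Both stable lines were given 1 µg/ml doxycycline to lower their endogenous OCT4, and all 3 groups grew in ES cell medium with LIF, a cytokine that maintains self-renewal. The labels do not say whether J1 cells received doxycycline, whether a stable line is a single clone, or whether the libraries of a group are separate cultures. P-values therefore reflect the variation among libraries, and that variation may be technical.

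In every cell, core histones form the spool around which DNA is wound, and a linker histone sits where the DNA enters and leaves it. The messengers of the replication-dependent genes end in a short stem-loop instead of a poly(A) tail, and they are made in bulk during S phase and destroyed when it ends. ES cells have a short cell cycle in which S phase takes up much of the time. H1f0 and H1f10, which encode the linker histones H1.0 and H1.10, are instead expressed outside S phase with poly(A) tails, and H1.0 is known to accumulate as cells differentiate.

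Library totals lay between 21149358 and 24786305 counts. The 72 genes took 68856 counts over the 9 libraries, or 0.0270% to 0.0405% of a library. Most were close to the limit of detection: the median gene had 81.5 counts over all 9 libraries, 43 had under 100, and H1f7 and H4c17, of which the first is known as a testis-specific linker histone, had none. A total of 38 passed the low-count filter and were tested, namely 7 H1, 11 H2A, 12 H2B, 4 H3 and 4 H4 genes. Levels are in CPM, the counts of a gene scaled to library size by TMM factors, and 20 genes averaged 1 CPM or more in some group. H2bc21 at 1.13 CPM and H2bc12 at 1.21 CPM in their highest group lay just above this limit, and H2bc18 and H2bc27, with 0.974 and 0.972 CPM, just below. H1f0, H1f10, H2ac23 and H2ac24 together held 78.5% to 82.8% of the histone counts in each library. How the RNA was selected is not given in the sources used here. Small RNAs that carry no poly(A) tail were low beside the highest histone genes: Rn7sk, the 7SK RNA that restrains transcription elongation, averaged 3.79 CPM in EWS-OCT4, 4.55 CPM in OCT4 and 7.77 CPM in J1 libraries. Of 14 RNAs without poly(A) tails or of unknown class in the files, 8 were tested, with 1 higher and 1 lower in EWS-OCT4 than in OCT4, 1 higher and 2 lower in EWS-OCT4 than in J1, and 1 higher and 2 lower in OCT4 than in J1. Over all genes tested, the higher and lower shares in these comparisons were 31.9% and 34.6%, 30.3% and 31.6%, and 34.3% and 32.7%. The 13 RNAs of the list other than Gm26917 summed to 11.1 to 13.7 CPM in EWS-OCT4, 12.97 to 14.4 CPM in OCT4 and 18.9 to 71.2 CPM in J1 libraries. Gm26917, a predicted gene, had 17070 to 19084 CPM in EWS-OCT4, 36843 to 56806 CPM in OCT4 and 8148 to 11000 CPM in J1 libraries. The part of RNA selection in the histone levels was not tested.

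**Figure D1:**
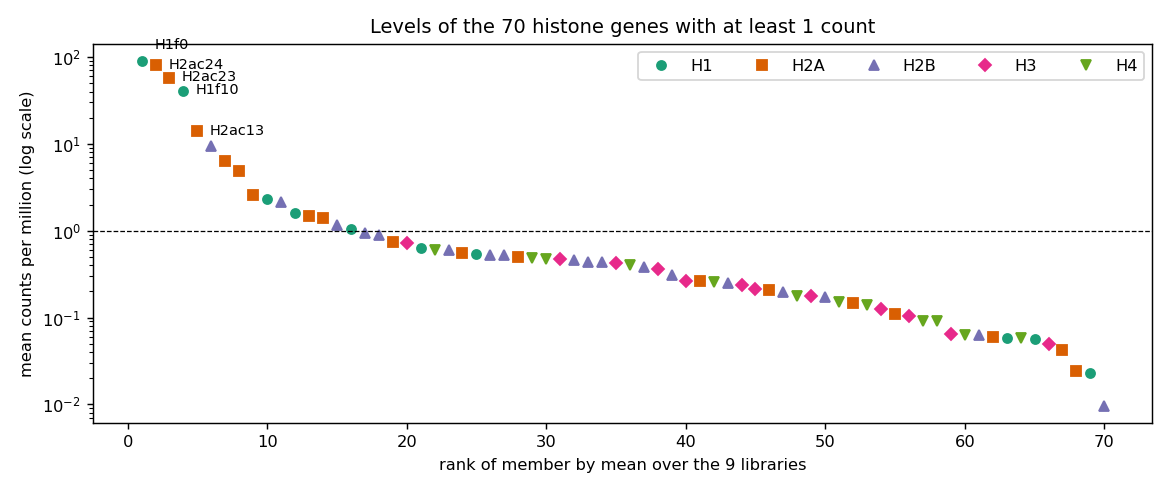
Mean level of each of the 70 histone genes with at least 1 count, in CPM on a log scale over the 9 libraries, ordered by level and marked by class. The dashed line is 1 CPM, and the 5 highest genes are H1f0, H2ac24, H2ac23, H1f10 and H2ac13.

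The stem-loop was looked for in GENCODE M21 transcripts, where 67 of the 72 symbols had a match. It was defined as 16 bases with complementary arms of 6 bases that open with GG and close with CC, around a loop of 4 bases with T at loop positions 1 and 3. It was found in 43 of the 67, and in 207 of all 55450 annotated genes, or 0.373%. By class it was in 4 of 10 H1, 10 of 17 H2A, 9 of 16 H2B, 9 of 12 H3 and 11 of 12 H4 genes. The 6 windows below show the stem-loop of genes that recur in the results, in capitals with its flanks, and the 2 H4 genes show the class difference in the stem.
H1f2: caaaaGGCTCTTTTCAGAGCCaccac
H2ac23: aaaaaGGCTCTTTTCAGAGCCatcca
H2ac24: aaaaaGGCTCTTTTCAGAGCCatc
H3c15: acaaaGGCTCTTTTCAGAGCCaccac
H4c2: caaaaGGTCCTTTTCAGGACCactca
H4c9: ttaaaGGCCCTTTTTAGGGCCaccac
The element ended 31, 3 and 28 bases before the end of the annotated transcript that held it in H2ac23, H2ac24 and H4c2, but 840, 377 and 330 bases before it in H1f2, H3c15 and H4c9. The form in H1f2, H2ac23, H2ac24 and H3c15 was the most frequent of 8, found in 24 genes of the H1, H2A, H2B and H3 classes. All 11 H4 stem-loops had stems of other letters. H1f0 on chromosome 15 and H1f10 on chromosome 6 held no such element. H2ac10, H2ac12, H2ac13 and H2bc4 also held none, in annotated transcripts of 399, 405, 393 and 1156 bases, of which the first 3 are about as long as an H2A coding sequence, so that an element beyond the annotated end would not be seen. Of the 18 matched genes that reached 1 CPM in a group, 9 had a stem-loop and 9 did not.

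Per kilobase of the longest annotated transcript, the mean level over the 9 libraries was highest for H2ac24, with 166 CPM per kb, followed by H2ac23 with 120, H1f0 with 43.5, H2ac13 with 35.5 and H1f10 with 33.6. Without the length correction H1f0, whose transcript has 2055 bases, came first with 89.4 CPM, ahead of H2ac24 with 79.9 CPM from a transcript of 482 bases.

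The classes went different ways between the lines. In EWS-OCT4 against OCT4, 14 of the 38 tested genes were lower and 4 higher at an adjusted p under 0.05 (edgeR quasi-likelihood test, Benjamini-Hochberg over 16562 genes), which is 36.8% and 10.5% of them. Over all genes tested, 34.6% were called lower and 31.9% higher, so the share of lower histone genes was near the background and the share of higher ones below it. All 7 tested H1 genes were lower, while the 4 higher genes were all H2A. Against J1, EWS-OCT4 had 6 lower and 1 higher, 15.8% and 2.63% of the 38, beside a background of 31.6% and 30.3%; without J1 replicate 1 the number of higher genes was 2. Against J1, OCT4 had 10 higher and 5 lower, 26.3% and 13.2% of the 38, beside 34.3% and 32.7% of all genes; without J1 replicate 3 the number of lower genes was 8. The median log2 fold change of the tested histone genes was -1.04, -0.42 and 0.42 in these 3 comparisons in the order given, and that of all genes tested -0.04, 0.00 and 0.01. The last 2 comparisons share the J1 libraries.

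The summed counts of each class do not depend on how reads were split among copies within a class. The 11 H1 genes summed to 78.6, 82.5 and 82.3 CPM in the EWS-OCT4 libraries, 198, 219 and 231 CPM in the OCT4 libraries and 97.4, 127 and 112 CPM in the J1 libraries. No 2 groups overlapped, and OCT4 was highest and EWS-OCT4 lowest. The 18 H2A genes summed to 187, 213 and 183 CPM in EWS-OCT4, 102, 118 and 75.0 CPM in OCT4 and 275, 209 and 173 CPM in J1 libraries. Here OCT4 was lowest and did not overlap the others, while the EWS-OCT4 values lay within the J1 range; without J1 replicate 1 the log2 ratio of EWS-OCT4 to J1 changed sign to 0.0229. The H2B genes averaged 13.1 ± 1.24 CPM in EWS-OCT4, 25.7 ± 1.57 CPM in OCT4 and 17.9 ± 1.23 CPM in J1 libraries (SD, n = 3 each), with no overlap between any groups. The H3 genes averaged 2.37 ± 0.494 CPM in EWS-OCT4, 5.07 ± 0.738 CPM in OCT4 and 2.16 ± 0.404 CPM in J1 libraries, and the H4 genes 1.99 ± 0.395, 3.85 ± 0.442 and 3.12 ± 1.05 CPM in the same groups. OCT4 thus had the highest mean of every class but H2A, although its H4 values overlapped those of J1. Over all 72 genes the sums differed less, with 293 ± 18.9 CPM in EWS-OCT4, 349 ± 19.2 CPM in OCT4 and 355 ± 42.7 CPM in J1 libraries. Between the OCT4 libraries and either other group the H1 and H2A sums differed in opposite directions, while in EWS-OCT4 against J1 both means were lower.

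**Figure D2:**
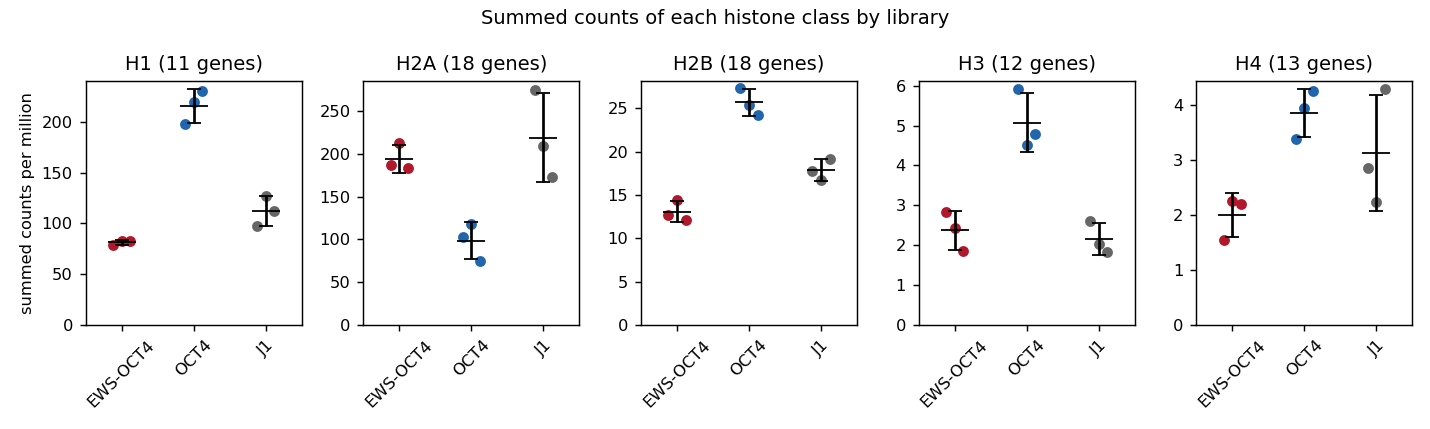
Summed level in CPM of the H1, H2A, H2B, H3 and H4 genes in each library (points), with the mean and SD of the 3 libraries of each group (bars). OCT4 libraries are the highest for H1, H2B and H3 and the lowest for H2A.

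Among the linker histones, H1f0, the linker histone of differentiating and non-dividing cells, had 55.4, 56.4 and 57.5 CPM in the EWS-OCT4 libraries, 129, 139 and 151 CPM in the OCT4 libraries and 62.3, 78.0 and 75.9 CPM in the J1 libraries. The groups did not overlap. The log2 fold change of H1f0 was -1.31 (SE 0.08, adjusted p = 3.53e-10) in EWS-OCT4 against OCT4, -0.35 (SE 0.08, adjusted p = 0.00152) in EWS-OCT4 against J1 and 0.95 (SE 0.08, adjusted p = 1.46e-08) in OCT4 against J1. H1f10, the H1.10 linker histone, followed the same order, with 20.1, 22.8 and 21.6 CPM in EWS-OCT4, 59.3, 68.3 and 69.4 CPM in OCT4 and 30.3, 44.9 and 30.8 CPM in J1 libraries. Again no groups overlapped. Its log2 fold changes were -1.61 (SE 0.13, adjusted p = 1.17e-07), -0.72 (SE 0.13, adjusted p = 0.000371) and 0.89 (SE 0.13, adjusted p = 2.68e-05) in the same 3 comparisons. These 2 genes held 94.4% to 96.5% of the H1 counts of a library, and neither shares a stretch of 31 bases with another annotated gene, so no copy of that length competes for their reads.

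H1f1 to H1f5 are the somatic linker histone genes of chromosome 13, expressed in S phase like the core histones. Together they gave 3.03, 3.33 and 3.20 CPM in the EWS-OCT4 libraries, 9.33, 11.8 and 10.3 CPM in the OCT4 libraries and 4.66, 4.11 and 5.41 CPM in the J1 libraries, without overlap between groups. H1f2, which encodes H1.2, had 0.817, 1.13 and 0.885 CPM in EWS-OCT4, 4.29, 4.74 and 4.03 CPM in OCT4 and 1.41, 1.48 and 1.83 CPM in J1 libraries. The OCT4 libraries stood well above both other groups, which did not overlap each other. Its log2 fold change was -2.20 (SE 0.21, adjusted p = 6.81e-08) in EWS-OCT4 against OCT4, -0.72 (SE 0.23, adjusted p = 0.0125) in EWS-OCT4 against J1 and 1.47 (SE 0.20, adjusted p = 3.12e-06) in OCT4 against J1. Leaving out EWS-OCT4 replicate 1 (adjusted p = 0.0507) or J1 replicate 3 (adjusted p = 0.0522) ended the call of EWS-OCT4 against J1. H1f4, encoding H1.4, had 0.962, 1.04 and 1.10 CPM in EWS-OCT4, 2.63, 2.62 and 2.86 CPM in OCT4 and 1.53, 0.798 and 0.893 CPM in J1 libraries. Its EWS-OCT4 values lay within the J1 range, and its calls were a log2 fold change of -1.38 (adjusted p = 0.000101) in EWS-OCT4 against OCT4 and 1.32 (adjusted p = 0.000129) in OCT4 against J1. H1f1, encoding H1.1, had 0.577, 0.563 and 0.463 CPM in EWS-OCT4, 0.739, 2.44 and 1.89 CPM in OCT4 and 1.28, 0.439 and 1.08 CPM in J1 libraries, with a call in EWS-OCT4 against OCT4 alone (log2 fold change -1.66, adjusted p = 0.00317). H1f3 and H1f5, under 1 CPM in every group, were also lower in EWS-OCT4 than in OCT4, with log2 fold changes of -1.10 (adjusted p = 0.0157) and -1.59 (adjusted p = 0.0181).

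**Figure D3:**
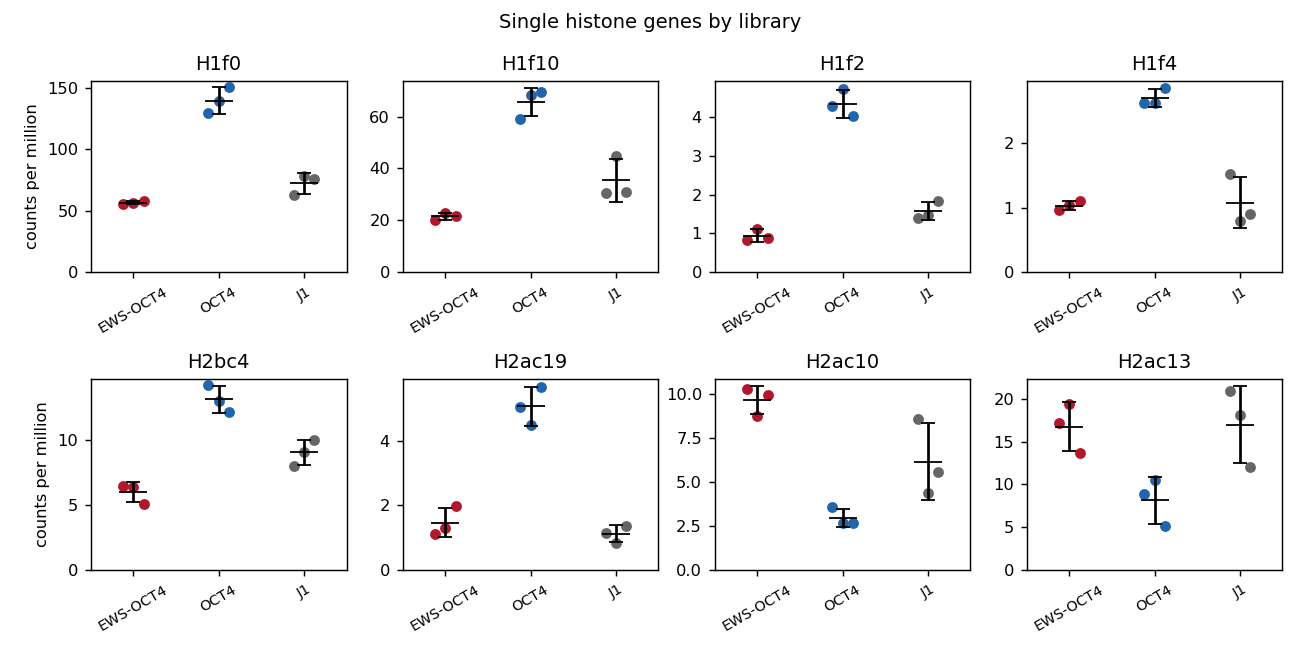
Level in CPM of 8 histone genes in each library (points), with the mean and SD of the 3 libraries of each group (bars). H1f0, H1f10, H1f2, H1f4, H2bc4 and H2ac19 are highest in the OCT4 libraries, and H2ac10 and H2ac13 are lowest there.

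Markers of other cell types also differed between the groups. Beside the counts below, 31.9% of all genes tested were higher and 34.6% lower in EWS-OCT4 against OCT4. The shares were 30.3% and 31.6% in EWS-OCT4 against J1, and 34.3% and 32.7% in OCT4 against J1. In EWS-OCT4 against OCT4 the summed trophectoderm, primitive endoderm and feeder markers were lower, as was the H1 sum. Over the 3 groups none of these marker sums had the order of the H1 sums, OCT4 above J1 above EWS-OCT4. The medians over single genes need not follow the sums, and they are given below. The 12 trophectoderm markers, which define the outer layer of the blastocyst, summed to 257 to 272 CPM in EWS-OCT4, 560 to 601 CPM in OCT4 and 152 to 185 CPM in J1 libraries. Of these, 11 were tested and Tpbpa had no count. In EWS-OCT4 against OCT4, 1 was higher (Krt7, a keratin, log2 fold change 0.61, adjusted p = 0.00243) and 7 lower, among them Hand1, a transcription factor of the trophoblast (log2 fold change -5.19, adjusted p = 2.32e-15). Against J1, 7 were higher and 1 lower in EWS-OCT4, and 9 higher and 0 lower in OCT4 (with 2 not called), where Gata3, another trophoblast factor, had a log2 fold change of 6.72 (adjusted p = 1.10e-13). In bulk RNA, fewer cells of a type and less RNA per cell cannot be told apart. The median log2 fold change of the 11 was -1.06 in EWS-OCT4 against OCT4, 1.05 in EWS-OCT4 against J1 and 1.62 in OCT4 against J1. The 10 primitive endoderm markers summed to 325 to 338 CPM in EWS-OCT4, 396 to 432 CPM in OCT4 and 228 to 237 CPM in J1 libraries, with 2 higher and 4 lower of 9 tested in EWS-OCT4 against OCT4, 2 and 6 in EWS-OCT4 against J1, and 2 and 4 in OCT4 against J1. The 10 feeder fibroblast markers summed to 32.9 to 37.5 CPM in EWS-OCT4, 75.3 to 80.7 CPM in OCT4 and 99.7 to 116 CPM in J1 libraries, with 0 higher and 5 lower of 6 tested in EWS-OCT4 both against OCT4 and against J1, and 1 higher and 2 lower in OCT4 against J1. The 12 ES cell markers summed to 3924 to 4027 CPM in EWS-OCT4, 3506 to 3597 CPM in OCT4 and 5005 to 5522 CPM in J1 libraries, none of them at 0, with 5 higher and 4 lower in EWS-OCT4 than in OCT4, 4 and 5 in EWS-OCT4 than in J1, and 2 and 8 in OCT4 than in J1. Pou5f1 itself had 25.6 to 29.3 CPM in EWS-OCT4, 162 to 168 CPM in OCT4 and 522 to 639 CPM in J1 libraries, and its counts do not tell an introduced sequence from the mouse gene. Median log2 fold changes in EWS-OCT4 against OCT4, EWS-OCT4 against J1 and OCT4 against J1 follow in that order. They were -1.10, -1.50 and -0.08 for the tested primitive endoderm markers and -1.59, -1.95 and 0.01 for the tested feeder markers. For the ES cell markers they were -0.03, -0.08 and -0.34. The part of these cell types in the histone levels was not tested.

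The core histone H2A pairs with H2B on the nucleosome. H2ac23 and H2ac24, both on chromosome 13, carried most H2A counts. H2ac24 had 101, 76.6 and 72.2 CPM in the EWS-OCT4 libraries, 51.2, 64.7 and 34.2 CPM in the OCT4 libraries and 140, 86.0 and 93.0 CPM in the J1 libraries. OCT4 lay below both other groups, which overlapped. The log2 fold change of H2ac24 was 0.73 (SE 0.30, adjusted p = 0.0693) in EWS-OCT4 against OCT4, which did not pass, and -1.09 (SE 0.30, adjusted p = 0.016) in OCT4 against J1. The first passed with DESeq2 (adjusted p = 0.024) and without OCT4 replicate 2 (adjusted p = 0.0329). H2ac23 had 49.9, 96.1 and 75.1 CPM in EWS-OCT4, 24.9, 25.03 and 20.8 CPM in OCT4 and 89.0, 86.9 and 51.9 CPM in J1 libraries. Its log2 fold change was 1.65 (SE 0.31, adjusted p = 0.00305) in EWS-OCT4 against OCT4 and -1.69 (SE 0.31, adjusted p = 0.00258) in OCT4 against J1.

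H2ac10, H2ac12 and H2ac13 showed the same low level in OCT4. H2ac13 had 17.2, 19.4 and 13.7 CPM in EWS-OCT4, 8.82, 10.5 and 5.08 CPM in OCT4 and 20.9, 18.1 and 12.04 CPM in J1 libraries. Its log2 fold change was 1.05 (SE 0.29, adjusted p = 0.0123) in EWS-OCT4 against OCT4 and -1.08 (SE 0.29, adjusted p = 0.0103) in OCT4 against J1, and the second was lost without J1 replicate 1 (adjusted p = 0.0589) or 2 (adjusted p = 0.054). H2ac12 had 3.56, 6.93 and 6.57 CPM in EWS-OCT4, 3.14, 3.16 and 1.68 CPM in OCT4 and 6.51, 6.86 and 5.41 CPM in J1 libraries, with log2 fold changes of 1.11 (SE 0.26, adjusted p = 0.00164) in EWS-OCT4 against OCT4 and -1.24 (SE 0.26, adjusted p = 0.000584) in OCT4 against J1. For both genes the EWS-OCT4 and J1 values overlapped. H2ac10 was the only histone gene called higher in EWS-OCT4 than in J1: it had 10.3, 8.79 and 9.94 CPM in EWS-OCT4, 3.56, 2.67 and 2.69 CPM in OCT4 and 8.60, 4.35 and 5.55 CPM in J1 libraries. The 3 groups did not overlap, and the log2 fold changes were 1.71 (SE 0.21, adjusted p = 2.44e-06), 0.65 (SE 0.19, adjusted p = 0.00797) and -1.06 (SE 0.22, adjusted p = 0.000406) in EWS-OCT4 against OCT4, EWS-OCT4 against J1 and OCT4 against J1.

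These 5 H2A genes are close copies. In the annotated transcripts, 93.8% of the 31-base stretches of H2ac23 also occurred in H2ac24, and between 85.9% and 93.8% of those of each of the 5 occurred in some other gene, so that the share of each row is uncertain. Their sum is not touched by an exchange of reads among them, though it is by an exchange with other H2A genes: it was 182, 208 and 178 CPM in EWS-OCT4, 91.6, 106 and 64.4 CPM in OCT4 and 265, 202 and 168 CPM in J1 libraries. OCT4 again lay below both other groups. The sum of the other 13 H2A genes was highest in OCT4. It was 5.29, 5.58 and 5.90 CPM in EWS-OCT4, 10.7, 11.7 and 10.6 CPM in OCT4 and 10.2, 6.98 and 5.59 CPM in J1 libraries. Most of the OCT4 sum came from H2ac19 and H2ac25, with means of 5.06 and 2.27 CPM there and 1.11 and 1.16 CPM in J1. The order of the sum therefore does not describe the 13 genes as a set. H2ac7, H2ac11 and H2ac18, each under 1 CPM, were highest in OCT4 too. H2ac1, H2ac4 and H2ac15 were highest in J1. H2ac6, H2ac8, H2ac20, H2ac21 and H2ac22 had their lowest means in OCT4, with H2ac8 and H2ac22 at 1.005 and 0.030 CPM. A sum without H2ac19 and H2ac25 was not made. The division into 5 and 13 genes was made after the values were seen and was not tested.

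H2ac19, on chromosome 3, was the highest of those 13. It had 1.11, 1.30 and 1.98 CPM in EWS-OCT4, 5.03, 4.47 and 5.67 CPM in OCT4 and 1.13, 0.838 and 1.36 CPM in J1 libraries. Its log2 fold change was -1.78 (SE 0.23, adjusted p = 1.98e-06) in EWS-OCT4 against OCT4 and 2.20 (SE 0.23, adjusted p = 1.95e-07) in OCT4 against J1, and EWS-OCT4 and J1 overlapped. Every 31-base stretch of H2ac19 also occurred in H2ac18, whose row held counts in 1 library alone, and the pair summed to 1.46 ± 0.459 CPM in EWS-OCT4, 5.24 ± 0.374 CPM in OCT4 and 1.11 ± 0.263 CPM in J1 libraries (SD, n = 3 each). H2ac25 was also highest in OCT4, with log2 fold changes of -1.24 (adjusted p = 0.000684) in EWS-OCT4 against OCT4 and 0.96 (adjusted p = 0.00377) in OCT4 against J1. H2ac4 was lower in EWS-OCT4 than in J1, with 0.481, 0.260 and 0.253 CPM in EWS-OCT4, 1.11, 0.678 and 0.252 CPM in OCT4 and 1.04, 1.84 and 0.752 CPM in J1 libraries and a log2 fold change of -1.89 (SE 0.49, adjusted p = 0.00302). H2ac8, between 0.462 and 3.33 CPM, passed in no comparison. All 10 genes on chromosome 3, of the H2A, H2B, H3 and H4 classes, summed to 2.84, 3.94 and 2.91 CPM in EWS-OCT4, 9.65, 10.4 and 10.96 CPM in OCT4 and 3.41, 2.43 and 3.01 CPM in J1 libraries. Without H2ac19 and H3c15 the other 8 averaged 1.59 ± 0.609 CPM in EWS-OCT4, 3.35 ± 1.01 CPM in OCT4 and 1.82 ± 0.341 CPM in J1 libraries, and the ranges of OCT4 and J1 overlapped. These 8 still include H2ac18 and H3c14, which share sequence with the genes left out.

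**Figure D4:**
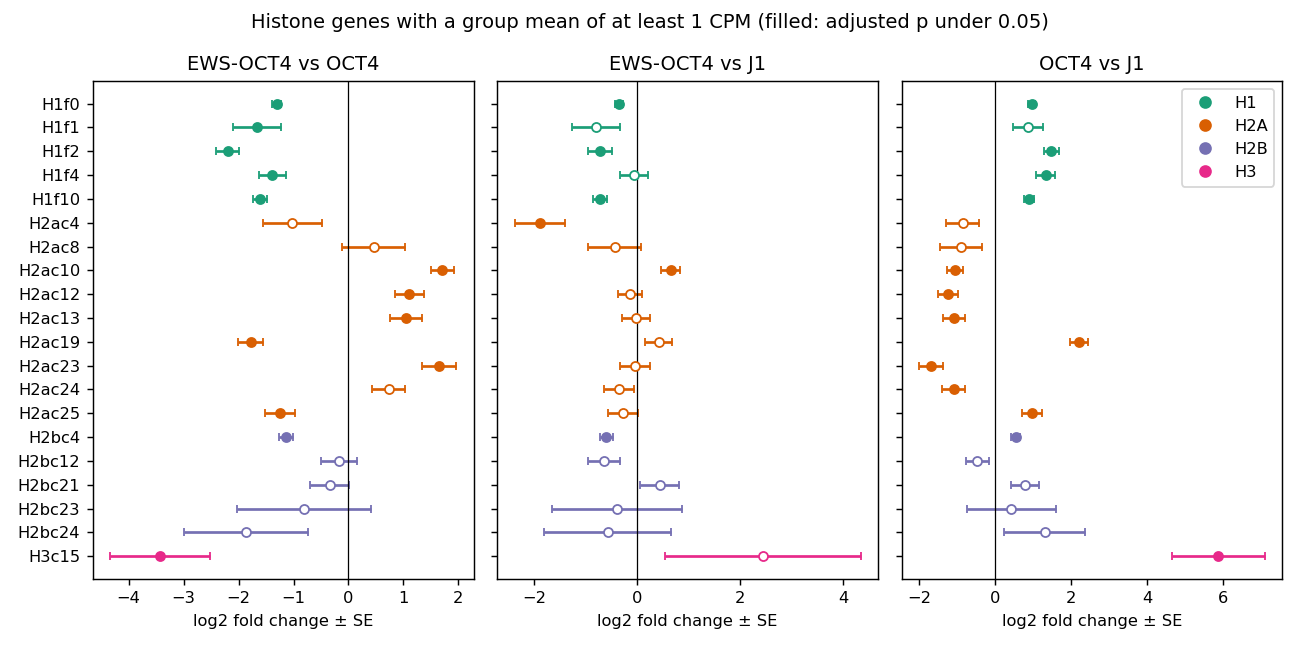
Log2 fold change with its SE for the 20 histone genes that averaged 1 CPM or more in a group, in EWS-OCT4 against OCT4, EWS-OCT4 against J1 and OCT4 against J1, coloured by class. Filled points passed an adjusted p of 0.05 in the edgeR quasi-likelihood test; the wide intervals of H2bc23, H2bc24 and H3c15 belong to rows with 0 counts in some libraries.

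In the H2B class, H2bc4, the highest with 49.7% of the counts, had 6.44, 6.41 and 5.10 CPM in the EWS-OCT4 libraries, 14.3, 13.01 and 12.2 CPM in the OCT4 libraries and 8.03, 9.10 and 10.01 CPM in the J1 libraries. The groups did not overlap and followed the order of the H1 genes. Its log2 fold changes were -1.14 (SE 0.13, adjusted p = 3.99e-07) in EWS-OCT4 against OCT4, -0.60 (SE 0.13, adjusted p = 0.000661) in EWS-OCT4 against J1 and 0.54 (SE 0.12, adjusted p = 0.000688) in OCT4 against J1. The other 17 H2B genes summed to 7.08 ± 0.928 CPM in EWS-OCT4, 12.5 ± 0.524 CPM in OCT4 and 8.82 ± 1.12 CPM in J1 libraries (SD, n = 3 each). Of these, H2bc18 and H2bc27, under 1 CPM in every group, were lower in EWS-OCT4 than in OCT4, with log2 fold changes of -1.93 (adjusted p = 0.00102) and -2.41 (adjusted p = 0.000245), and H2bc27 was higher in OCT4 than in J1 (1.19, adjusted p = 0.0146). H2bc12 and H2bc21, at about 1 CPM, passed in no comparison.

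The rows of H2bc23 and H2bc24 swung against each other. Of the 31-base stretches of H2bc23, 98.3% occurred in some other gene; H2bc24 had no match in the annotation, so what it shares with H2bc23 was not measured. H2bc23 held 42, 0 and 14 counts in the EWS-OCT4 libraries, 35, 31 and 34 in the OCT4 libraries and 0, 56 and 23 in the J1 libraries. H2bc24 held 0, 44 and 28 counts in EWS-OCT4, 84, 75 and 102 in OCT4 and 87, 0 and 25 in J1. A library with none of one thus had all counts in the other, and neither row passed in any comparison, with SEs of 1.06 to 1.26 on the log2 scale. Their sum varied less, with 42, 44 and 42 counts in EWS-OCT4, 119, 106 and 136 in OCT4 and 87, 56 and 48 in J1, where the spread was widest. Scaled to library size this was 1.90 ± 0.125 CPM in EWS-OCT4, 5.33 ± 0.483 CPM in OCT4 and 2.66 ± 0.721 CPM in J1 libraries, without overlap between groups.

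**Figure D5:**
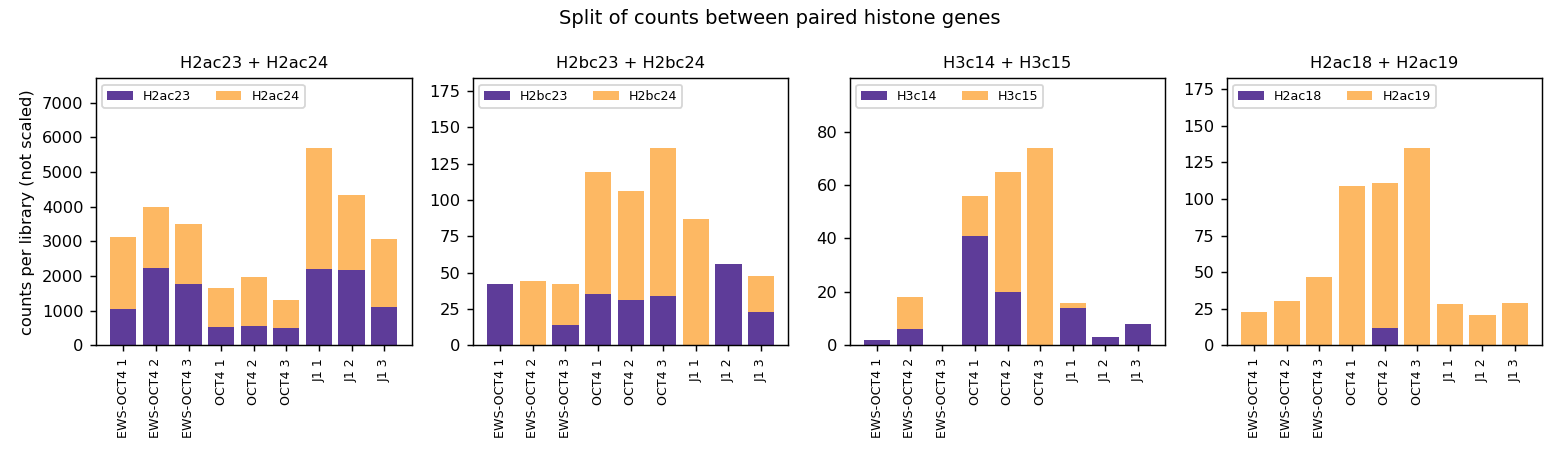
Unscaled counts per library of 4 pairs of histone genes, stacked by gene. The split within H2bc23 and H2bc24 and within H3c14 and H3c15 changes from library to library, while the sums are highest in OCT4 for 3 pairs and lowest in OCT4 for H2ac23 and H2ac24.

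The H3 and H4 classes, whose proteins form the tetramer at the centre of the nucleosome, had the fewest counts, with 656 for H3 and 615 for H4 over the 9 libraries. H3c15 held 0, 12 and 0 counts in EWS-OCT4, 15, 45 and 74 in OCT4 and 2, 0 and 0 in J1 libraries. It was the only H3 gene to reach 1 CPM in a group, and OCT4 was the highest. Its log2 fold change was -3.43 (SE 0.91, adjusted p = 0.00709) in EWS-OCT4 against OCT4, a call lost with DESeq2 (adjusted p = 0.127) and in a fit of those 6 libraries (adjusted p = 0.0504). It was -2.82 without EWS-OCT4 replicate 3 and -8.48 without EWS-OCT4 replicate 2, which held all EWS-OCT4 counts, so that the second value is against a group at 0 and is no measure of size. For OCT4 against J1 the ratio of scaled counts was 70.6, with a 95% counting interval of 19.2 to 589 from 134 against 2 counts (adjusted p = 0.0017 in edgeR). Both J1 counts were in replicate 1, and the fitted log2 fold change was 8.47 without it and 5.87 with it, the first again against a group at 0. H3c14 shares 64.2% of the 31-base stretches of H3c15, and held 2, 6 and 0 counts in EWS-OCT4, 41, 20 and 0 in OCT4 and 14, 3 and 8 in J1 libraries, with no call. The pair summed to 0.292 ± 0.425 CPM in EWS-OCT4, 2.88 ± 0.267 CPM in OCT4 and 0.379 ± 0.262 CPM in J1 libraries (SD, n = 3 each). For the pair the ratio of the OCT4 mean to the J1 mean was 7.58. The ratio of 70.6 for H3c15 alone thus depends on the split with H3c14. Its interval covers counting error only, not the spread of 15, 45 and 74 counts among the OCT4 libraries. Without H3c15 the H3 sums of all 3 groups overlapped, with 5.22, 2.48 and 1.68 CPM in the OCT4 libraries. This remainder depends on how reads were split between H3c15 and H3c14, and a sum without both was not made. H3c3, between 0.210 and 0.923 CPM, passed in no comparison.

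No H4 gene reached 1 CPM in a group. H4c9 had 0.288, 0.606 and 0.379 CPM in EWS-OCT4, 0.600, 0.542 and 0.966 CPM in OCT4 and 0.442, 0.519 and 0.987 CPM in J1 libraries and did not pass. H4c18 had 0.0962, 0.216 and 0.337 CPM in EWS-OCT4, 0.508, 0.768 and 0.672 CPM in OCT4 and 0.844, 0.239 and 0.658 CPM in J1 libraries. It was lower in EWS-OCT4 than in OCT4 (log2 fold change -1.54, SE 0.52, adjusted p = 0.0153) and than in J1 (-1.36, SE 0.53, adjusted p = 0.0326), although its values overlapped those of J1. Leaving out EWS-OCT4 replicate 1 (adjusted p = 0.0742) or OCT4 replicate 2 (adjusted p = 0.0553) ended the first call. The second ended in 5 alternatives, with limma-voom or without EWS-OCT4 replicate 1 or 2 or J1 replicate 1 or 3, at adjusted p of 0.0622 to 0.168. H4c2 had 0.0962, 0.433 and 0.505 CPM in EWS-OCT4, 0.693, 0.949 and 0.588 CPM in OCT4 and 0.161, 0.319 and 0.517 CPM in J1 libraries, and was higher in OCT4 than in J1 (log2 fold change 1.18, SE 0.49, adjusted p = 0.0406), a call that ended in 6 alternatives, with DESeq2 or without EWS-OCT4 replicate 2, OCT4 replicate 1 or 2, or J1 replicate 1 or 2, at adjusted p of 0.0506 to 0.16.

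Many H2A and H2B genes lie head to head and share the stretch between their start sites. In the RefSeq promoter table (GRCm38.p6) 9 such pairs had starts 164 to 281 bases apart, all on chromosome 13. In 3 of them the H2A gene was called higher in EWS-OCT4 than in OCT4 and lower in OCT4 than in J1, namely H2ac12, H2ac13 and H2ac23. Their partners H2bc12 and H2bc23 passed in neither comparison, with log2 fold changes of -0.18 and -0.81 in EWS-OCT4 against OCT4, and H2bc13 had too few counts to be tested. The H2bc23 row swung against that of H2bc24, so its lack of a call does not show an unchanged level. Summed, H2bc23 and H2bc24 averaged 1.90 CPM in EWS-OCT4, 5.33 CPM in OCT4 and 2.66 CPM in J1 libraries. The share of each of the 3 H2A rows is also uncertain, as given above. The difference between partners was not tested. The promoter of H2ac23 spans chr13:21810117-21810416 on the plus strand and is shown because it also covers the start of H2bc23, 168 bases away. Capitals mark CCAAT and GGTCC on either strand.
H2ac23 promoter: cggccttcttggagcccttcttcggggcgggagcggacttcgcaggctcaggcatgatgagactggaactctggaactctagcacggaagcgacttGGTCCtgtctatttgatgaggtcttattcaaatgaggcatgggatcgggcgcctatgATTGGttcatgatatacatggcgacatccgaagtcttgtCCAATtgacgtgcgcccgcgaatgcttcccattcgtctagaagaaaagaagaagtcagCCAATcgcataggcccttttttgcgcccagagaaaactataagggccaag
The promoter of H2ac12, at chr13:22035594-22035893 on the minus strand, covers the start of H2bc12 and also holds the octamer ATTTGCAT, read on the other strand as ATGCAAAT. Capitals mark the octamer, CCAAT and TATAAA on either strand.
H2ac12 promoter: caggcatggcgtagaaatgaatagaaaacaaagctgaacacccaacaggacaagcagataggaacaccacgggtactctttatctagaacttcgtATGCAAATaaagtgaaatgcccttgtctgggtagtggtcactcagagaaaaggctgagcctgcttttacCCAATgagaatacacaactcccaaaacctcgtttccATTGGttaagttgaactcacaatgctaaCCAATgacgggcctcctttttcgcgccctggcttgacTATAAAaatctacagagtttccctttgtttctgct

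The octamer is the DNA element that POU factors, OCT4 among them, recognise, and it is a known part of H2B promoters. Of the 62 histone promoters in the table (250 bases before to 50 after the start), it was present on either strand in 6 of 17 H2A and 6 of 14 H2B promoters and in 0 of 10 H1, 0 of 10 H3 and 0 of 11 H4 promoters, against 1.75% of all 27025 promoters. The promoters of head-to-head partners overlap, so a shared site counts for both genes. H2ac12 and H2bc12 hold the same octamer, as do H2ac8 and H2bc8, and H2ac1 and H2bc1. Sites of CCAAT and TATAAA shared by partners are also counted for both genes below. The windows below show the octamer in capitals in H2B genes that were tested.
H2bc12: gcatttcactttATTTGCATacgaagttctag
H2bc18: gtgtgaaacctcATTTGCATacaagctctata
H2bc8: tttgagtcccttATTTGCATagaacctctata
H2bc3: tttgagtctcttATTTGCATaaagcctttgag
Of the 12 genes with the octamer, 7 were tested. In EWS-OCT4 against OCT4, H2ac12 was higher, H2bc18 lower and 5 did not pass, beside 31.9% higher and 34.6% lower among all genes. In EWS-OCT4 against J1, H2ac4 was lower and 6 did not pass, beside 30.3% higher and 31.6% lower among all genes. In OCT4 against J1, H2ac12 was lower and 6 did not pass, beside 34.3% higher and 32.7% lower among all genes. CCAAT was in all 17 H2A, 14 H2B and 10 H3 promoters, in 7 of 10 H1 and in 3 of 11 H4 promoters, against 37.9% of all promoters. TATAAA was in 34 of the 62 against 14.2%, and GGTCC was in 10 of 11 H4 promoters against 45.4%. The H1f0 promoter, at chr15:79027962-79028261, held none of the octamer, CCAAT and TATAAA. A match is a match of letters and not a measured binding site.

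Genes of DNA replication act in the same S phase in which the histone messengers are made. The backgrounds for this and the next lists are the shares of all genes called that are given above. Of 30 replication genes, 19 were higher and 4 lower in EWS-OCT4 than in OCT4, 19 higher and 2 lower in EWS-OCT4 than in J1, and 7 higher and 10 lower in OCT4 than in J1. Their median log2 fold changes in these comparisons were 0.30, 0.25 and -0.04. Ccne1, the cyclin that starts S phase, had 198, 200 and 204 CPM in EWS-OCT4 against 68.7, 58.5 and 68.2 CPM in OCT4 libraries (log2 fold change 1.62, adjusted p = 3.64e-12). Rrm2, a subunit of the enzyme that makes deoxynucleotides, had 242, 239 and 237 CPM in EWS-OCT4 against 338, 335 and 334 CPM in OCT4 libraries (-0.49, adjusted p = 1.29e-05).

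Of the 21 genes of histone messenger processing in the files, 11 were higher and 2 lower in EWS-OCT4 than in OCT4, 11 higher and 6 lower in EWS-OCT4 than in J1, and 7 higher and 9 lower in OCT4 than in J1. The medians were 0.17, 0.22 and -0.13. Zfp473, whose protein binds the U7 particle that cuts histone messengers, had 41.9, 42.2 and 43.8 CPM in EWS-OCT4, 11.8, 12.1 and 14.8 CPM in OCT4 and 28.6, 26.8 and 25.1 CPM in J1 libraries. The groups did not overlap, with log2 fold changes of 1.72 (adjusted p = 3.69e-11) in EWS-OCT4 against OCT4, 0.67 (adjusted p = 3.70e-06) in EWS-OCT4 against J1 and -1.05 (adjusted p = 2.21e-08) in OCT4 against J1. Lsm11, a component of the U7 particle, was lower in EWS-OCT4 than in OCT4 (-0.75, adjusted p = 8.93e-06). Eri1, the exonuclease that trims the histone stem-loop and takes part in histone messenger decay, was lower than in J1 both in EWS-OCT4 (-0.98, adjusted p = 8.26e-09) and in OCT4 (-1.37, adjusted p = 5.69e-11).

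Histone chaperones, which carry new histones to DNA, numbered 22. Of these 12 were higher and 3 lower in EWS-OCT4 than in OCT4, 8 higher and 4 lower in EWS-OCT4 than in J1, and 5 higher and 10 lower in OCT4 than in J1. The medians were 0.23, 0.08 and -0.14. Asf1a, a chaperone of H3 and H4, was higher in EWS-OCT4 than in OCT4 (log2 fold change 1.02, adjusted p = 2.95e-08), and Hat1, which acetylates new H4, was lower (-0.56, adjusted p = 3.54e-06).

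Replacement histones are mostly made outside S phase from polyadenylated messengers, and whether this holds for each gene listed was not examined. In the files were 12 of those listed, 10 of them tested. In EWS-OCT4, 2 were higher and 7 lower than in OCT4, and 4 higher and 4 lower than in J1, while OCT4 had 6 higher and 3 lower than J1. The medians were -0.49, 0.02 and 0.29. H2az1, encoding the variant H2A.Z, had 343, 337 and 340 CPM in EWS-OCT4, 162, 173 and 144 CPM in OCT4 and 318, 246 and 235 CPM in J1 libraries. OCT4 was the lowest, and the log2 fold changes of H2az1 were 1.09 (adjusted p = 5.58e-08) in EWS-OCT4 against OCT4, 0.35 (adjusted p = 0.00504) in EWS-OCT4 against J1 and -0.74 (adjusted p = 4.66e-06) in OCT4 against J1. H2ax, encoding the H2A.X variant that is phosphorylated at DNA breaks, had 129, 130 and 133 CPM in EWS-OCT4, 265, 293 and 293 CPM in OCT4 and 105, 119 and 99.004 CPM in J1 libraries. It was highest in OCT4, with log2 fold changes of -1.12 (adjusted p = 6.01e-10) in EWS-OCT4 against OCT4 and 1.39 (adjusted p = 2.75e-11) in OCT4 against J1. Macroh2a1, a variant enriched in silent chromatin, was lower in EWS-OCT4 than in OCT4 (-1.20, adjusted p = 5.87e-11).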

How the data were processed

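Libraries were made with the CORALL RNA-seq V2 kit from total RNA extracted with RNAiso Plus, per the labels' protocols. What the authors deposited is 1 table a library of raw counts, whole numbers for each gene symbol. Tools named in the submitters' processing notes are fastp, STAR, Salmon and GATK, with build GRCm39. Not given in the sources used here are the annotation, strand setting, collapsing of molecular identifiers and RNA selection, so counts of overlapping and antisense genes and of copies are uncertain. The histone genes and all lists were chosen with earlier results of these data known.

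Groups came from sample titles. Genes were kept by filterByExpr (minimum count 10, minimum total 15), libraries were scaled by TMM, and all 9 libraries entered 1 robust quasi-likelihood fit in edgeR 4.0.16 (R 4.3.3). Fold changes are edgeR's, with the first-named group on top, and class sums were not tested. The fit was also run on simulated counts with known fold changes, and the outcome is not given here. Genes described are those with a mean of at least 1 CPM in a group. Given in every library are the 3 highest of each class, all H1 genes of at least 1 CPM, and per comparison and direction up to 3 called genes with the largest change; from other lists, up to 2 called genes per direction with at least 5 CPM. All other genes under 1 CPM in every group were named after their values were seen, among them H1f3, H1f5, H2ac18, H2ac22, H2bc3, H2bc8, H2bc13, H2bc18 and H2bc27. Sequences are from GENCODE M21 and RefSeq (GRCm38.p6), which are of another build than the counts. Alternatives were RLE and upper-quartile scaling, 2 other filters, DESeq2 1.42.0, limma-voom (limma 3.58.1), a fit of 6 libraries, the replicate block, scaling without 13 mitochondrial genes and Gm26917, and each library left out. Intervals cover counting error only.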

Additional observations from a re-analysis of the deposited data

How the results depend on the processing

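With no low-count filter, 7 histone genes were higher in EWS-OCT4 than in OCT4 (4 as reported) and 9 lower in OCT4 than in J1 (5 as reported). With a minimum of 5 CPM in 3 libraries, which leaves few histone genes to test, 3 were lower in EWS-OCT4 than in OCT4 (14), 3 lower in EWS-OCT4 than in J1 (6) and 3 higher in OCT4 than in J1 (10). With 1 library left out, genes higher in EWS-OCT4 than in J1 numbered 1 to 2 and genes lower in OCT4 than in J1 numbered 4 to 8. The cause was not tested. Whether the replicate numbers pair the libraries was not settled. Of 9 same-number pairs, 5 correlated above 0.1 (range -0.0089 to 0.292), and 11 of 18 best matches had their own number. With the replicate block, 4 genes were higher and 16 lower in EWS-OCT4 than in OCT4, 1 and 6 in EWS-OCT4 than in J1, and 11 and 5 in OCT4 than in J1.

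Of 1089 recomputed log2 fold changes of 21 named genes in 3 comparisons, 1026 kept direction and side of the threshold, 19 lost and 18 gained the call, and 26 changed sign, all of them not called before. The sign changes with all libraries were -0.0299 for H3c3 in EWS-OCT4 against J1 with upper-quartile scaling, -0.0018 for H4c2 in EWS-OCT4 against J1 and -0.0045 for H3c14 in OCT4 against J1, both with limma-voom. With 1 library left out, log2 fold changes in EWS-OCT4 against J1 ran from -0.2432 to 0.2905 for H1f4, -0.2868 to 0.1169 for H2ac12, -0.2171 to 0.1435 for H2ac13, -0.2702 to 0.1809 for H2ac23, -1.8608 to 0.7173 for H2bc23, -1.3228 to 0.9205 for H2bc24, -2.6197 to 5.0499 for H3c15, -0.1508 to 0.1814 for H3c3 and -0.2588 to 0.5438 for H4c2. In OCT4 against J1 they ran from -0.1862 to 1.5182 for H2bc23, -0.057 to 0.9486 for H3c3, -0.2173 to 0.5595 for H4c18 and -0.1588 to 0.5327 for H4c9, and in EWS-OCT4 against OCT4 from -0.9295 to 0.0774 for H3c3. Of 195 recomputed log2 ratios of class sums, 195 moved by less than 1 SD. In EWS-OCT4 against J1, 2 changed sign, H2A to 0.0229 without J1 replicate 1 and H3 to -0.0031 without EWS-OCT4 replicate 1. Depth limits the H3 and H4 genes most, since 11 of 12 H3 and 11 of 13 H4 genes had under 100 counts in all.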
